A study of Mus musculus with 7 samples.

Results

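Neutrophil granule and myeloid progenitor genes were examined in bulk RNA from HSCs (hematopoietic stem cells) of mouse bone marrow with and without ferritin heavy chain. The 10 genes are Mpo, Elane, Prtn3, Ctsg, Lyz2, Ms4a3, Ly6c2, Cebpa, Cebpe and Gfi1, taken by gene identifier from a table of 55855 genes, in which all 10 were found. The Fth1-deleted group (genotype Fth1△/△) had 4 libraries and the control group (genotype Fth1fl/fl, floxed alleles, called WT in the study's description) had 3. All came from mice aged 2 months, and the study asks what iron storage by Fth1 does in HSCs, through a conditional deletion in the hematopoietic system. The Cre driver, the sort markers, and whether each library came from a separate mouse are not given in the sources used here, so p-values measure the spread between these libraries. Values are FPKM, the reads of a gene scaled to its length and to the reads of the library. In bulk RNA, fewer cells of a type and less RNA per cell cannot be told apart.

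Primary (azurophil) granules are packed at the promyelocyte stage of neutrophil development. Myeloperoxidase and the serine proteases neutrophil elastase, proteinase 3 and cathepsin G are made then, and their RNA is switched on in granulocyte-monocyte progenitors by C/EBP factors working with PU.1 and Myb. Late granule proteins such as lactoferrin follow in later stages, under C/EBP epsilon. HSCs are known to carry traces of such lineage RNA before they commit.

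The upstream sequences of the 4 primary granule genes, of which Elane and Prtn3 are direct neighbours, are shown first, as a description only. Each is the stretch of 250 bases before the RefSeq start, from RefSeq on GRCm38.p6, written 5′ to 3′ on the strand of the gene. Capitals mark the PU.1 motif GAGGAAGT on either strand.
Mpo, chr11:87793534-87793783, plus strand: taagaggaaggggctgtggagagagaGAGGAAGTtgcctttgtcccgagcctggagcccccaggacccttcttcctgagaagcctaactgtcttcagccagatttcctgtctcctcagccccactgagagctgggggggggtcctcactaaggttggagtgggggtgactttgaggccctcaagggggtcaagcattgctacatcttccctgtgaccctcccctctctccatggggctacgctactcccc
Elane, chr10:79886062-79886311, plus strand: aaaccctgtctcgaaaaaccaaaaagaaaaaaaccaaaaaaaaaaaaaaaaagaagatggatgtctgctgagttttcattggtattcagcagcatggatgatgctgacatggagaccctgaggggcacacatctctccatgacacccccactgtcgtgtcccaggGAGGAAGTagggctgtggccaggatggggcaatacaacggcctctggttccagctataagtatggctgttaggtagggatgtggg
Prtn3, chr10:79879417-79879666, plus strand: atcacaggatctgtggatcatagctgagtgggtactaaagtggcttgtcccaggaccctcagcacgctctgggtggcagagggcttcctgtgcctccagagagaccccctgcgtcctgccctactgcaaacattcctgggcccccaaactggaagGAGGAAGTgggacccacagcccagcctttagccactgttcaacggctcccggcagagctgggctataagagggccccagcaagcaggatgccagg
Ctsg, chr14:56102575-56102824, minus strand: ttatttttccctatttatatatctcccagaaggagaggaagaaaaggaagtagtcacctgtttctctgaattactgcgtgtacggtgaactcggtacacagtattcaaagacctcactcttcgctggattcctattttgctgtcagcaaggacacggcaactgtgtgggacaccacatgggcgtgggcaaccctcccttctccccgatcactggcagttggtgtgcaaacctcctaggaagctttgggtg
The PU.1 motif lay in 3 of the 4 windows, beginning 224 bases before the start of Mpo, 85 before Elane and 95 before Prtn3, and 2.44% of all 32851 upstream windows of this length hold it. The C/EBP motif TTNCNNAA was in 0 of 4 windows, against 36.8% of all windows. The RUNX motif TGTGGT was in 1 of 4 (Ctsg, 79 bases before the start), against 14.0%, and the MYB motif AACNG in 4 of 4, against 74.2%. Both strands were searched, and no 2 motifs of different kinds overlapped. Each motif was searched only as spelled here, so sites spelled otherwise were not counted. Elane and Prtn3 both carried the PU.1 motif. These matches describe the letters of the windows only.

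Fth1-deleted libraries had more Mpo RNA than control libraries in every comparison of single libraries, Elane and Ctsg were read in 2 of the 4 Fth1-deleted libraries and in no control library, and Prtn3 and Lyz2 were abundant in all 7 libraries with overlapping ranges. No member passed the test across all genes. Of the 9 members with a mean FPKM of at least 1, which were tested, 0 were called higher and 0 lower at an adjusted p of 0.05 (limma-trend, Benjamini-Hochberg over 13948 genes). The background rates of such calls over all genes were 0.0287% higher and 0.0287% lower, 0.0574% in all. At an unadjusted p under 0.05, limma-trend had 3 members (Mpo, Ms4a3 and Ly6c2), all higher, against 4.9% of all genes higher, 4.93% lower and 9.83% in all. By limma-voom on recovered reads 2 members were under that value, against 10.7% of all genes. Cebpe fell below the mean of 1 FPKM. Elane and Ctsg reached it only through the group in which they were read.

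**Figure D1:**
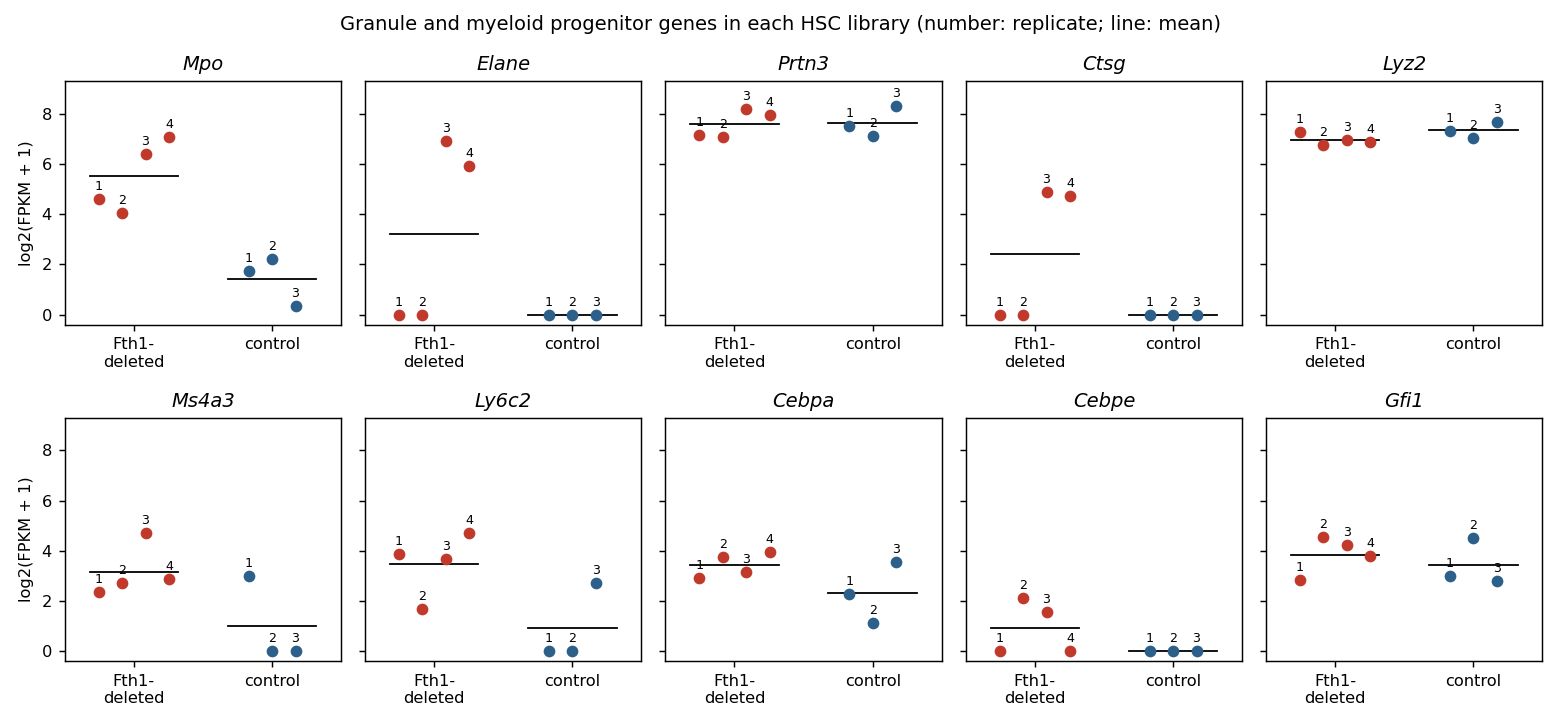
Level of each gene as log2(FPKM + 1), with 1 point per library (4 Fth1-deleted, red; 3 control, blue), the replicate number above it and a line at the group mean. Mpo is the gene whose groups do not overlap, Elane and Ctsg are at 0 in all libraries but Fth1-deleted 3 and 4, and Prtn3 and Lyz2 lie high in all 7 libraries.

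Mpo (ENSMUSG00000009350, chromosome 11, 87793581 to 87804413, plus strand) encodes myeloperoxidase, the heme enzyme that makes hypochlorous acid in the phagosome. Its FPKM was 23.4, 15.4, 84.2 and 135 in Fth1-deleted libraries 1 to 4, against 2.33, 3.63 and 0.255 in control libraries 1 to 3. These values rest on 470, 273, 1400 and 2592 reads in the Fth1-deleted libraries and 42, 71 and 4 reads in the control libraries. All 4 Fth1-deleted libraries lay above all 3 control libraries, and within the Fth1-deleted group libraries 3 and 4 stood well above 1 and 2. Mean FPKM was 64.5 ± 56.1 in Fth1-deleted libraries (SD, n = 4) and 2.07 ± 1.70 in control libraries (SD, n = 3), a ratio of 31.1. It was 19.8 without Fth1-deleted 4 and 49.9 without control 2, the lowest and highest values with 1 library left out. On the log2(FPKM + 1) scale its difference (Fth1-deleted less control, as in all that follow) was 4.11 (SE 0.72, limma adjusted p = 0.0803), just outside the threshold. Over 23 alternative settings the adjusted p was 0.0618 to 0.684, so Mpo was not called in any of them. The antisense gene Gm11505 overlaps its exons. A complete separation in this direction was found in 4.1% of all tested genes and, among the members, in Mpo alone. No member was lower in this way, against 5.55% of all tested genes.

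Elane (ENSMUSG00000020125, chromosome 10, 79886247 to 79888215, plus strand) encodes neutrophil elastase. Its FPKM was 0, 0, 121 and 59.9 in Fth1-deleted libraries 1 to 4, and 0 in control libraries 1 to 3. The values in Fth1-deleted 3 and 4 correspond to 1521 and 873 reads. The groups overlap at 0, since Fth1-deleted 1 and 2 had no read either. The mean of 45.2 ± 57.7 FPKM in Fth1-deleted libraries (SD, n = 4) was at least 201-fold higher than in control libraries, when these are set at 3 reads per library, and at least 88.8-fold without Fth1-deleted 3. Such a floor covers counting error only, since PCR copies one molecule into several reads. This gave a log2 difference of 3.21 with SE 1.54 (limma adjusted p = 0.531), and it was 1.98 without Fth1-deleted 3.

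Ctsg (ENSMUSG00000040314, chromosome 14, 56099881 to 56102574, minus strand) encodes cathepsin G, a chymotrypsin-like protease stored with elastase. It was read in the same 2 libraries, at 0, 0, 28.3 and 25.7 FPKM in Fth1-deleted libraries 1 to 4 and at 0 in control libraries 1 to 3. The reads behind these values were 281 and 294. The mean of 13.5 ± 15.6 FPKM in Fth1-deleted libraries (SD, n = 4) was at least 47.2-fold higher than control at 3 reads per library, and at least 29.9-fold without Fth1-deleted 3. On the log2 scale the groups differed by 2.40, with SE 1.23 (limma adjusted p = 0.567), and it was 1.58 without Fth1-deleted 3 and 1.63 without Fth1-deleted 4. After these values were seen, the whole table was searched for the pattern of at least 100 reads in both Fth1-deleted 3 and 4 and 0 in the other 5 libraries. Of 13707 tested genes with recovered reads, 4 had it, which is 0.0292%. They were Elane and Ctsg, from which the pattern was taken, the immunoglobulin segment Igkv14-126 and the antisense gene Gm44941. Absence of a gene's reads from single libraries was seen more broadly, as 13.9% of the 13707 genes had 0 reads in one library and at least 100 in another.

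Prtn3 (ENSMUSG00000057729, chromosome 10, 79874476 to 79883174, plus strand) encodes proteinase 3 and lies directly upstream of Elane. Its FPKM was 141, 132, 287 and 247 in Fth1-deleted libraries 1 to 4, against 184, 136 and 315 in control libraries 1 to 3. The ranges overlap over nearly their whole width, and within the Fth1-deleted group libraries 3 and 4 were again the higher pair. Means were 202 ± 77.2 FPKM in Fth1-deleted libraries (SD, n = 4) and 212 ± 92.7 FPKM in control libraries (SD, n = 3). Its log2 difference came to -0.06 with SE 0.33 (limma adjusted p = 0.961) and changed sign with several settings. Prtn3 stood among the top 2.12% to 6.80% of detected genes in each library. Its annotated exons overlap those of Plppr3, which runs the other way. Whether reads were counted by strand is not given in the sources used here. Reads of the overlap may belong to either gene, or may be missing from both. Plppr3 was at 54.5, 112, 59.0 and 40.9 FPKM in Fth1-deleted libraries and at 99.6, 125 and 49.6 FPKM in control libraries, below Prtn3 in each library.

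Summed FPKM of the 4 primary granule genes was 164, 147, 520 and 467 in Fth1-deleted libraries 1 to 4, against 186, 140 and 315 in control libraries 1 to 3. Prtn3 alone made up 85.8%, 89.5%, 55.2% and 52.8% of it in the Fth1-deleted libraries and 98.7%, 97.4% and 99.9% in the control libraries. The Prtn3 to Mpo ratio was 1.83 to 8.54 in Fth1-deleted libraries and 37.4 to 1234 in control libraries. Few Mpo reads lie under the control ratios, 42, 71 and 4 in control libraries 1 to 3, and the highest ratio rests on the 4. The gene's length in FPKM is the mean over its annotated transcripts, short fragments included, so such ratios between genes are approximate. Further protein-coding neighbours were looked at by position. Cfd, the next gene after Elane, was at 0 in all 7 libraries, as were the granzyme genes Gzme and Gzmd beside Ctsg and the mast cell protease gene Mcpt8. Others were read in Fth1-deleted 4, one of the libraries with Elane and Ctsg, and in no other library, namely the mast cell protease gene Mcpt4 beside Ctsg at 10.7 FPKM (175 reads) and Misp near Elane at 3.30 FPKM (76 reads).

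**Figure D2:**
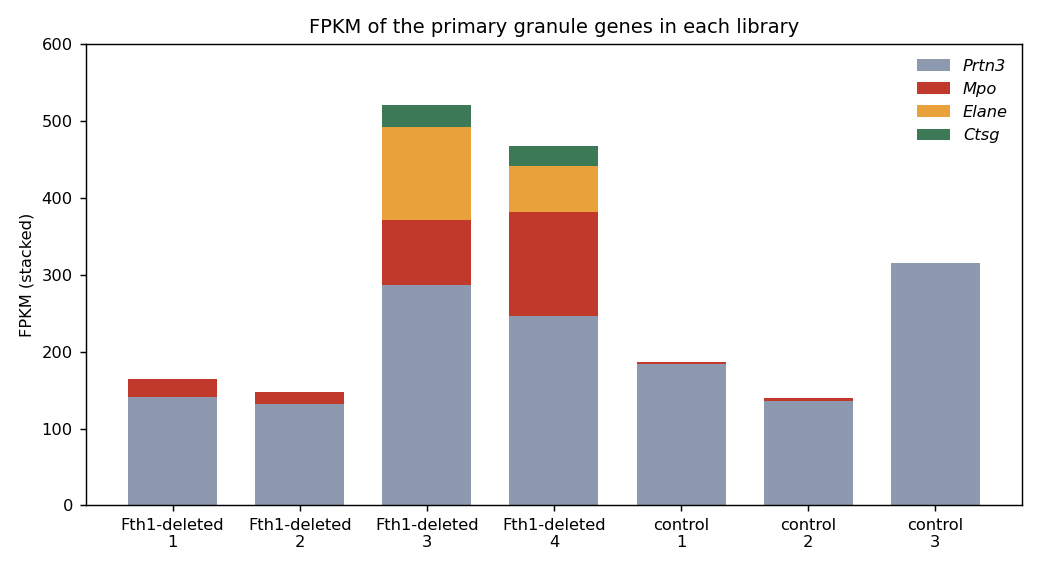
FPKM of Prtn3, Mpo, Elane and Ctsg stacked for each library, with Fth1-deleted libraries 1 to 4 on the left and control libraries 1 to 3 on the right. Prtn3 makes up 97.4% to 99.9% of the bar in control libraries, while Elane and Ctsg appear in Fth1-deleted 3 and 4.

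Lyz2 (ENSMUSG00000069516, chromosome 10, 117277331 to 117282321, minus strand) encodes lysozyme M, an enzyme of granulocytes and macrophages that cuts bacterial cell walls. Its FPKM was 152, 107, 121 and 115 in Fth1-deleted libraries 1 to 4, against 157, 130.5 and 203 in control libraries 1 to 3. Fth1-deleted 1 lay within the control range and the other 3 below it. This gave a log2 difference of -0.39 with SE 0.21 (limma adjusted p = 0.583). Lyz1, whose longest transcript is 96.0% identical to that of Lyz2, was at 0 in the 4 Fth1-deleted libraries and at 0.06, 4.21 and 2.17 FPKM in the control libraries. How reads that match both copies were counted is not given in the sources used here, so both were summed. Reads left out of both copies would be missing from the sum too. The sum was 124 ± 19.5 FPKM in Fth1-deleted libraries (n = 4) and 166 ± 36.0 FPKM in control libraries (n = 3), and a two-sided exact permutation test over 35 splits gave p = 0.0857, the same after adjustment over the 2 sums tested here.

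Ms4a3 (ENSMUSG00000024681, chromosome 19, 11629496 to 11640851, minus strand) encodes a membrane protein used as a marker of granulocyte-monocyte progenitors. Its FPKM was 4.13, 5.51, 25.5 and 6.35 in Fth1-deleted libraries 1 to 4, against 7.08, 0 and 0 in control libraries 1 to 3. All Fth1-deleted libraries had reads, but control 1 exceeded 3 of them. On the log2 scale the groups differed by 2.16, with SE 0.85 (limma adjusted p = 0.444), and leaving out 1 library moved it between 1.64 and 3.17.

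Ly6c2 (ENSMUSG00000022584, chromosome 15, 75108158 to 75111970, minus strand) encodes a Ly6C surface antigen of monocytes and their progenitors. Its FPKM was 13.7, 2.26, 11.7 and 25.3 in Fth1-deleted libraries 1 to 4, against 0, 0 and 5.67 in control libraries 1 to 3. Control 3 lay above Fth1-deleted 2, so the groups overlap by that pair. Its log2 difference came to 2.58 with SE 0.86 (limma adjusted p = 0.377), and it was 3.49 without control 3. Its near copy Ly6c1, with a longest coding transcript 97.6% identical to that of Ly6c2, was read in Fth1-deleted 1 only, at 2.30 FPKM. The sum of both was 13.8 ± 9.56 FPKM in Fth1-deleted libraries (n = 4) and 1.89 ± 3.27 FPKM in control libraries (n = 3), with a two-sided exact permutation p = 0.0857, adjusted over the 2 sums 0.0857.

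Among the transcription factors, Cebpa (ENSMUSG00000034957, chromosome 7, 35119293 to 35121928, plus strand) encodes C/EBP alpha, which is needed to form granulocyte-monocyte progenitors. Its FPKM was 6.60, 12.5, 7.83 and 14.5 in Fth1-deleted libraries 1 to 4, against 3.85, 1.19 and 10.6 in control libraries 1 to 3. Control 3 lay among the Fth1-deleted libraries and the other controls below them. This gave a log2 difference of 1.13 with SE 0.60 (limma adjusted p = 0.584), or 0.54 without control 2 and 1.74 without control 3. An antisense gene, Gm45091, overlaps its exons.

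Cebpe (ENSMUSG00000052435, chromosome 14, 54710360 to 54712174, minus strand) encodes C/EBP epsilon, the factor of late granule genes. It was read in Fth1-deleted 2 and 3 only, at 3.31 and 1.95 FPKM or 56 and 31 reads, and was at 0 in Fth1-deleted 1 and 4 and in control libraries 1 to 3. Of these libraries, Fth1-deleted 3 also had Elane and Ctsg reads, while Fth1-deleted 2 had none. Without a filter its log2 difference was 0.92 (SE 0.56, limma adjusted p = 0.714), and its mean was at least 7.38-fold higher in Fth1-deleted libraries than in control libraries set at 3 reads each, or at least 3.64-fold without Fth1-deleted 2.

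Gfi1 (ENSMUSG00000029275, chromosome 5, 107716657 to 107726036, minus strand) encodes a zinc finger repressor that favours the neutrophil over the monocyte fate and also acts in HSCs. Its FPKM was 6.15, 22.4, 17.8 and 12.97 in Fth1-deleted libraries 1 to 4, against 6.98, 22.02 and 5.97 in control libraries 1 to 3. Both groups cover the same range. On the log2 scale the groups differed by 0.41, with SE 0.54 (limma adjusted p = 0.819). With the share of ribosomal RNA as a covariate, which differs between the groups as given below, the Gfi1 difference was -1.30. A noncoding gene on the other strand, A430072P03Rik, overlaps its exons.

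Across the 10 genes, 7, 8, 10 and 9 had reads in Fth1-deleted libraries 1 to 4, and 6, 5 and 6 in control libraries 1 to 3. Reads were present in every library for 5 of them (Mpo, Prtn3, Lyz2, Cebpa and Gfi1), and 3 were at 0 in all control libraries (Elane, Ctsg and Cebpe). Without a filter on low values, 8 of 10 had a positive log2 difference and the median was 1.64. Over the 19119 genes with any reads, 52.1% were positive and the median was 0.02. The 3 members at 0 in all control libraries could only be positive. The members were also chosen with earlier results of these data known, so these figures are a description only. By mean FPKM, Prtn3 ranked first in both groups and Lyz2 second. They were followed by Mpo at 64.5 and Elane at 45.2 in Fth1-deleted libraries, and by Gfi1 at 11.7 and Cebpa at 5.23 in control libraries. The means of Mpo and Elane in the Fth1-deleted group lie closer together than the SD of either.

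**Figure D3:**
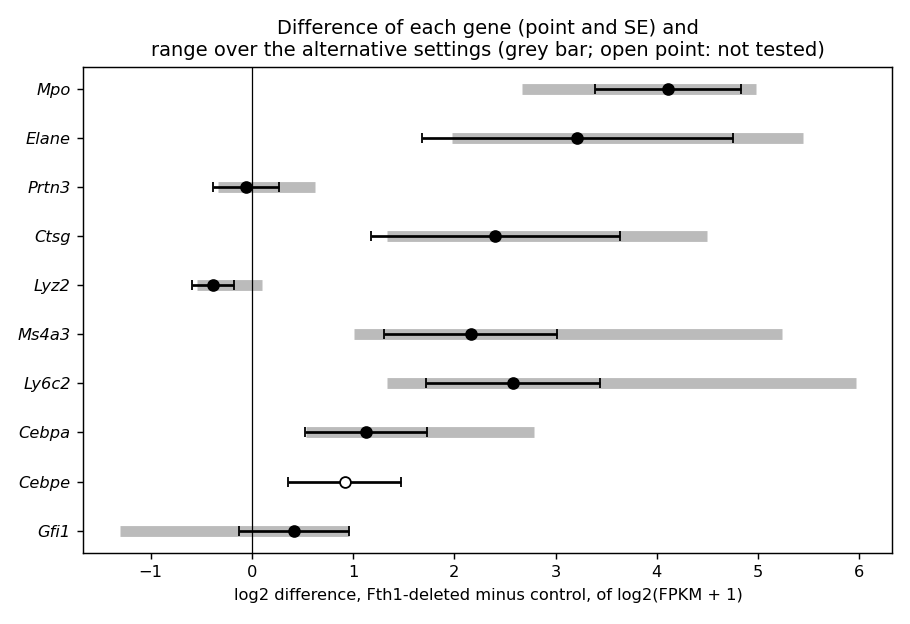
Log2 difference of each gene, Fth1-deleted less control, in units of log2(FPKM + 1) (point, with SE bars) and its range over the alternative settings (grey bar). Mpo has the highest value, 4.11 with a range of 2.67 to 4.98, while the ranges of Prtn3, Lyz2 and Gfi1 cross 0; Cebpe (open point) was fitted without a filter only.

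Facts of the libraries bear on these values. Counted reads were 12806902 to 15453168 in Fth1-deleted libraries and 12058392 to 15046058 in control libraries. Fth1 was lower in each Fth1-deleted library (114 to 358 FPKM) than in each control library (552 to 659 FPKM), with a log2 difference of -1.42 (SE 0.33, limma adjusted p = 0.193). Fth1-deleted 3 had the most Fth1 of its group and Fth1-deleted 4 the least, and both had high Mpo. Ribosomal RNA took 1.21% to 1.34% of reads in Fth1-deleted libraries, against 0.0253%, 0.984% and 0.0140% in control libraries 1 to 3 (two-sided exact permutation p = 0.0286, the smallest possible). With that share as a covariate the Mpo log2 difference was 2.67. Within groups the share varied mostly through control 2. This fit therefore rests largely on that library and separates the share poorly from the group. The mitochondrial gene mt-Co2 was at 1750 FPKM in Fth1-deleted 3 and at 2468 FPKM in control 1, and at 60.8 to 77.2 FPKM in the other libraries. Among those 5 libraries the Mpo difference was 3.97 (limma adjusted p = 0.364). Single-copy Y-linked genes were read in Fth1-deleted 1 to 3 and control 2, and not in Fth1-deleted 4 or control 1 and 3. The part of these differences in the members' values was not tested.

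The gene lists that surround the members showed no call (limma-trend over all genes). In the list of granule packaging and processing, 0 of 13 genes passed, all 13 had reads in every library, and the median log2 difference was 0.03. Its most abundant genes by mean FPKM were Calr, a chaperone of the endoplasmic reticulum on which myeloperoxidase folds, Srgn, the proteoglycan core that binds granule proteases, and Canx, a second such chaperone. Calr averaged 819 FPKM in Fth1-deleted libraries and 669 FPKM in control libraries (log2 difference 0.29, SE 0.15). Srgn averaged 538 FPKM in Fth1-deleted and 534 FPKM in control libraries (0.03, SE 0.16), and Canx 250 FPKM in Fth1-deleted and 225 FPKM in control libraries (0.17, SE 0.17). Serpinb1a, which encodes an inhibitor of elastase, proteinase 3 and cathepsin G, was singled out after its values were seen. It was at 61.9, 50.5, 68.1 and 71.7 FPKM in Fth1-deleted libraries, against 21.1, 32.03 and 34.0 FPKM in control libraries, so its groups do not overlap. Its log2 difference was 1.11 (SE 0.26, limma adjusted p = 0.193).

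Late granule and mature neutrophil genes were scarce in both groups. Of 18 genes 8 had a mean FPKM of at least 1 and 0 passed, and Mmp8, Mmp9, Cd177, Retnlg, Ly6g and Fcnb were at 0 in all 7 libraries. Lactoferrin (Ltf) was read in Fth1-deleted 2 only. The summed FPKM of the list was 96.0 to 111 in Fth1-deleted libraries and 56.4 to 117 in control libraries, most of it from Padi4, a histone-modifying enzyme that averaged 56.5 FPKM in Fth1-deleted libraries and 55.2 FPKM in control libraries. The calgranulin genes followed, with means of 14.8 FPKM in Fth1-deleted and 10.3 FPKM in control libraries for S100a8, and 12.8 FPKM in Fth1-deleted and 6.75 FPKM in control libraries for S100a9. The S100a9 control mean came from control 3 alone, at 20.3 FPKM, above every Fth1-deleted library. Control 1 had no S100a8 reads. In the libraries with Elane and Ctsg the list was mixed. S100a8 was at 31.4 FPKM in Fth1-deleted 3, its highest value, and at 3.98 FPKM in Fth1-deleted 4. The secondary granule genes Camp and Lcn2, the haptoglobin gene Hp and the chemokine receptor gene Cxcr2, named after their values were seen, were at 0 in Fth1-deleted 3 and at 10.3, 2.99, 7.35 and 3.08 FPKM in Fth1-deleted 4. Camp was higher, at 13.5 FPKM, in Fth1-deleted 2, which had neither Elane nor Ctsg.

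Among other markers of granulocyte-monocyte progenitors 0 of 9 passed, and the median log2 difference was 0.72. Plac8 averaged 173 FPKM in Fth1-deleted libraries and 132 FPKM in control libraries (log2 difference 0.56, SE 0.37), and Gstm1 121 FPKM in Fth1-deleted and 125 FPKM in control libraries (-0.03, SE 0.22). The sialomucin gene Cd34 averaged 121 FPKM in Fth1-deleted and 66.7 FPKM in control libraries, and its groups do not overlap (log2 difference 0.82, SE 0.25, limma adjusted p = 0.326). Among other myeloid regulators and cytokine receptors 0 of 16 passed, with a median of 0.19. Myb averaged 183 FPKM in Fth1-deleted and 170 FPKM in control libraries (log2 difference 0.16, SE 0.26). Gfi1b, the paralog of Gfi1 in red cells and platelets, averaged 127 FPKM in Fth1-deleted and 112 FPKM in control libraries (0.22, SE 0.36). Spi1, which encodes PU.1, was at 181, 135, 145 and 98.0 FPKM in Fth1-deleted libraries, against 69.9, 85.7 and 90.8 FPKM in control libraries. Its groups do not overlap, and its log2 difference was 0.73 (SE 0.23, limma adjusted p = 0.339).

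**Figure D4:**
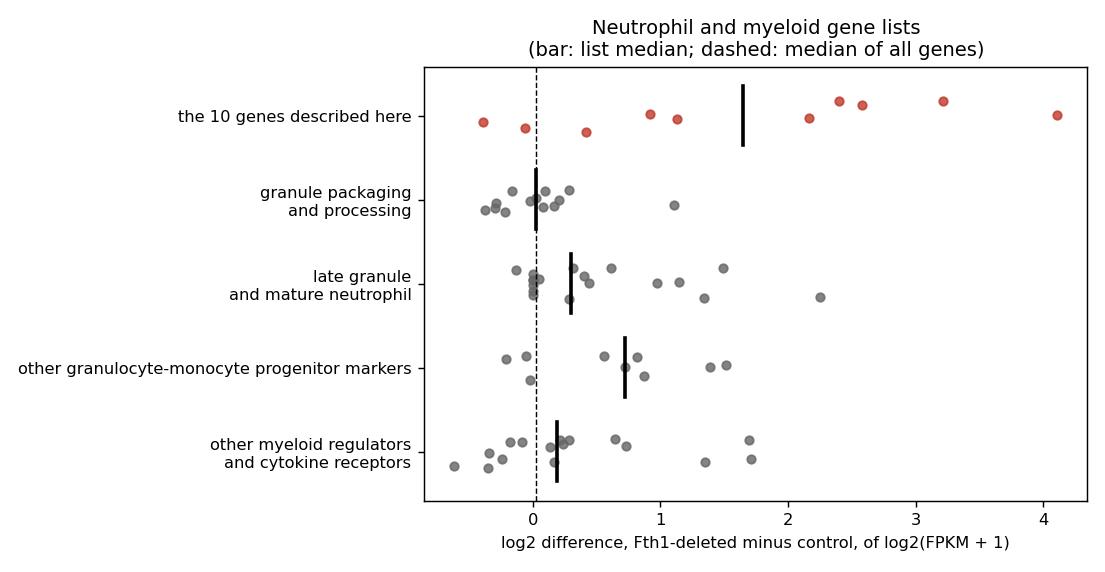
Log2 difference of each gene, Fth1-deleted less control, in units of log2(FPKM + 1), in the 10 genes (red) and in 4 surrounding lists (grey), with a bar at each list's median and a dashed line at the median of all genes (0.02). List medians are 1.64, 0.03, 0.30, 0.72 and 0.19 from top to bottom.

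Markers of HSCs and of other cell types were summed in each library, and their part in the values above was not tested. All 8 HSC markers had reads in every library. Their sums were 551 to 742 FPKM in Fth1-deleted libraries and 834 to 1368 FPKM in control libraries. Of these 8 markers, 0 were called higher and 1 lower (limma-trend, adjusted over all tested genes). Among all tested genes, 0.0287% were called higher and 0.0287% lower. The 10 monocyte and macrophage markers summed to 50.1 to 127 FPKM in Fth1-deleted libraries and 26.3 to 61.8 FPKM in control libraries. The 7 mast cell and basophil markers summed to 16.04 to 44.4 FPKM in Fth1-deleted libraries and 0 to 12.9 FPKM in control libraries, with Mcpt8 and Prss34 at 0 throughout. Most of this sum was the mast cell carboxypeptidase gene Cpa3, named after its values were seen, at 16.04, 33.9, 35.7 and 21.8 FPKM in Fth1-deleted libraries, against 6.55, 0 and 0 FPKM in control libraries. Its groups do not overlap, and its log2 difference was 3.76 (SE 0.70, limma adjusted p = 0.0983). The 8 B cell markers summed to 24.2 to 87.8 FPKM in Fth1-deleted libraries and 12.1 to 26.2 FPKM in control libraries. Vpreb1, a surrogate light chain gene of B cell precursors, was named after its values were seen. It was at 4.06, 9.71, 29.5 and 31.8 FPKM in Fth1-deleted libraries and at 0 in control libraries. It was highest in the libraries with Elane and Ctsg, and in this list its groups alone do not overlap. Pax5 and Cd79b, named likewise, were highest in control 1 (8.77 FPKM) and control 2 (26.2 FPKM), while 5 of the 8 genes were at 0 in every control library. Eosinophil markers (5) summed to 0.838 to 5.17 FPKM in Fth1-deleted libraries and 0 to 3.71 FPKM in control libraries, with Epx and Ear1 at 0. T and NK cell markers (6) summed to 0 to 4.02 FPKM in Fth1-deleted libraries and 0.183 to 14.7 FPKM in control libraries, with Cd3e at 0. Erythroid markers (8) summed to 300.5 to 761 FPKM in Fth1-deleted libraries and 320 to 872 FPKM in control libraries. Megakaryocyte markers (6) summed to 912 to 1095 FPKM in Fth1-deleted libraries and 608 to 914 FPKM in control libraries, with Gp1bb at 0. The largest part was Itga2b, named after its values were seen, at 501 to 664 FPKM in Fth1-deleted and 332 to 514 FPKM in control libraries. Without a filter, 3 of these 6 markers had a positive log2 difference, and the median was 0.12. Dendritic cell markers (4) summed to 0 to 20.6 FPKM in Fth1-deleted libraries and 6.58 to 23.1 FPKM in control libraries, with Siglech at 0. Outside the HSC markers, no tested gene of these lists passed the threshold. Genes with a mean FPKM under 1 were not tested. Tested were 9 of the 10 monocyte and macrophage markers, 3 of 7 for mast cells and basophils and 7 of 8 for B cells. For eosinophils it was 0 of 5, for T and NK cells 2 of 6 and for dendritic cells 1 of 4. For erythroid markers it was 7 of 8, and for megakaryocyte markers 5 of 6.

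The genes whose pattern over the 7 libraries was most like that of Mpo were ranked by Pearson's r of log2(FPKM + 1) among 11197 named protein-coding genes, as a description over libraries that also differ by group and ribosomal RNA share. The first 5 were Ccl9, a chemokine of myeloid cells (r = 0.970), Naa80, an actin acetyltransferase (0.968), Idh2, the mitochondrial isocitrate dehydrogenase (0.967), Ipp (0.958) and the centriole gene Cep76 (0.957). In all, 45 genes had an r above 0.9 with Mpo. Ccl9 was at 5.28, 4.49, 10.5 and 12.4 FPKM in Fth1-deleted libraries 1 to 4, against 3.30, 1.84 and 1.07 FPKM in control libraries 1 to 3. Its order within the Fth1-deleted group was that of Mpo, as was that of Naa80, Idh2 and Cep76. Ranking by r with Mpo favours such an order.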

How the data were processed

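Per the series text, the authors aligned paired-end reads to GRCm38 with HISAT2 2.0.4, counted reads per gene with HTSeq 0.9.1 and computed FPKM from gene length and counts. Per the labels, libraries were made from polyA RNA. The deposited FPKM were used as given, and the annotation release, strand setting and filters are not given in the sources used here. Of 55855 gene identifiers 55480 matched GENCODE M21, which supplied symbols, GRCm38 positions and lengths. FPKM times mean transcript length gave whole reads (within 0.05) for 98.8% to 99.4% of values under 50 reads, and from these each library's counted reads.

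The 13948 genes whose mean FPKM reached 1 were tested on log2(FPKM + 1) with limma 3.58.1 (limma-trend, R 4.3.3), without covariates and with Benjamini-Hochberg adjustment over all of them. The fold change understates the change of low genes on this scale. Sums of near copies were tested by exact permutation. The fit was tested on simulated data with 200 changed genes. The simulation gave all genes the same dispersion, so it does not cover genes read in some libraries and absent from others. Upstream sequences came from RefSeq, where 9 of 10 genes matched.

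The members, lists and tests were chosen with earlier results of these data known. Named genes are all members, Fth1, near copies, from each surrounding list any gene past the threshold and the 3 with the highest mean FPKM, and 5 genes most like Mpo; others are marked. One gene of a marker list is counted but not reported here by name. Alternatives were pseudocounts of 0.1 and 5, no filter or a mean FPKM of 5, size factors, quantile normalization, TPM, no trend, arrayWeights, limma-voom, a ribosomal RNA covariate, a Y-linked term, a replicate block and each library left out. After seeing the data, protein-coding genes alone and 2 library subsets (low mt-Co2, high ribosomal RNA) were added.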

Additional observations from a re-analysis of the deposited data

Results flagged for a closer look

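Among 25 named genes checked in the 4 Fth1-deleted libraries, 3 had a library far from the other 3 by Dixon's test, where chance gives about 1 in 20. For Ly6c1 that follows from its 3 zeros alone, whatever the value of the other library. Ms4a3 was at 25.5 FPKM in Fth1-deleted 3, against 4.13 to 6.35 FPKM in the rest of that group. Padi4 was at 72.4 FPKM in Fth1-deleted 1, against 48.8 to 52.6 FPKM in the rest. Ly6c1 was at 2.30 FPKM in Fth1-deleted 1 and at 0 in the other 3.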

How the results depend on the processing

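No member was called under any of the 23 alternatives, whose smallest adjusted p for a member was 0.0618 (Mpo, protein-coding genes alone). Mpo, Ms4a3, Ly6c2 and Cebpa stayed positive in all of them. Elane and Ctsg did too, but with 0 reads in every control library their sign was all but fixed in advance. Signs changed elsewhere. With the ribosomal RNA covariate, log2 differences were 0.63 for Prtn3, 0.10 for Lyz2, -1.30 for Gfi1, -0.60 for S100a8, -0.53 for Myb and -0.68 for Gfi1b. With the Y-linked term they were 0.21 for Prtn3 and -0.087 for Myb. Among libraries with high ribosomal RNA, which are 4 Fth1-deleted libraries against control 2 alone, so that this 1 control is assumed to vary like the other group, they were 0.48 for Prtn3, -0.67 for Gfi1, -0.18 for S100a8, -0.33 for Myb and -0.40 for Gfi1b, and among libraries with low mt-Co2 -0.83 for S100a8 and -0.036 for Srgn. Srgn was at -0.012 with quantile normalization and -0.051 with TPM, Padi4 at -0.029 with TPM, and Gstm1 at 0.0014 with size factors. With 1 library left out, log2 differences ranged for Prtn3 from -0.34 to 0.27, for Srgn from -0.068 to 0.16, for Padi4 from -0.13 to 0.24, for S100a8 from -0.37 to 1.74, for Gstm1 from -0.24 to 0.12, for Myb from -0.15 to 0.41, for Gfi1b from -0.17 to 0.52. The cause was not tested.

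Over all genes, 4 were called higher and 4 lower. Counts were 0 and 0 without a filter, with the replicate block and among libraries with low mt-Co2, 10 and 7 without a trend, 23 and 9 with the ribosomal RNA covariate, 7 and 10 with the Y-linked term, 43 and 176 with control 2 as the 1 control of the high ribosomal RNA libraries, and 2 and 2 for protein-coding genes alone. By limma-voom 0 were higher and 5 lower. With 1 library left out 0 to 3 were higher and 0 to 1 lower. Fth1 passed the threshold with the Y-linked term alone (-1.74, adjusted p = 0.0491). Deviations of libraries sharing a replicate number correlated at 0.00900, 0.0609 and -0.0370, so the numbers were not taken as pairs; with the replicate block Mpo was at 3.59 (limma adjusted p = 0.684).

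With 3 and 4 libraries per group an exact permutation p cannot fall below 0.0286. Values of 0 in deep libraries limit Elane, Ctsg and Cebpe, whose fitted differences depend on the pseudocount.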
